A study of Mus musculus with 10 samples.

Results

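Mesenchymal cells of mouse skin were compared, as one group, with mesenchymal stem cells (MSC) of bone marrow, to describe the tissue identity that both sorted skin populations have in common. Gene expression was measured by bulk RNA sequencing of freshly sorted cells in 10 libraries, and all 10 entered the comparison. The skin group held 3 libraries of skin Ebf2+ cells and 3 libraries of skin Ebf2- PαS cells, which were positive for CD140a and Sca1. How Ebf2 was detected for the sort is not stated in the labels. Both came from the dorsal skin of FVB/N mice aged 8 to 12 weeks, 3 mice in all. The bone marrow group held 4 libraries of Sca1+ CD51+ cells from 4 C57BL/6 mice aged 8 to 10 weeks, and the labels give an earlier study as the origin of bone marrow 1 to 3. All cells were sorted as negative for CD45 (leukocytes), TER119 (red cell lineage) and CD31 (endothelium). Tissue, mouse strain, sort markers and, for most of the bone marrow, the study of origin differed together, so their effects cannot be told apart.

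A gene was taken as part of the shared difference where it met both of 2 conditions. The levels of all 6 skin libraries lay above, or all below, those of all 4 bone marrow libraries, and the gene passed edgeR's quasi-likelihood test at an adjusted p below 0.05. The level is given in CPM, the count of a gene relative to the TMM-scaled total of its library. Of the 13740 genes tested, 1023 (7.45%) showed no overlap between the groups, 422 of them higher (3.07%) and 601 lower (4.37%) in skin. A further 35 of the 14995 genes in the deposited table had no overlap but too few reads to be tested. The test called 356 genes (2.59%), 167 higher (1.22%) and 189 lower (1.38%) in skin. Both conditions held for 305 genes (2.22% of those tested), 135 higher (0.983%) and 170 lower (1.24%), and these 305 genes are described here. The median log2 fold change of all tested genes was 0.13, and all log2 fold changes are skin over bone marrow, ± SE.

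Fibroblast-like cells of different organs keep a positional program laid down in the embryo, carried by Hox genes and by other transcription factors of the body axes and the limbs. Dorsal skin mesenchyme makes the dermis and its elastic and collagen fibres, houses hair follicles and fat cell precursors, and takes part in immune signalling and in drug and hormone metabolism. Mesenchymal cells of the marrow and its bone surfaces give rise to bone, cartilage and marrow fat and supply factors that maintain blood stem cells.

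Promoter sequences are shown for 6 of the 305 genes, picked as examples from gene groups described further on: interferon-induced genes and a heat shock gene, higher in skin, and bone genes, lower in skin. Other called bone genes are not shown, and how many of them hold the motif was not counted. Each is the 250 bases before the RefSeq gene start (build GRCm38.p6), written 5′ to 3′ on the strand of the gene. Capitals mark the interferon-stimulated response element (GAAA, any 2 bases, GAAA) in Isg15, Oas1a and Gbp2, the heat shock element (GAA, any 2 bases, TTC) in Hspa1a and the Runx core (ACCACA) in Bglap and Mmp13. Each motif was searched on both strands, and in Gbp2 the match lies on the opposite strand.
Isg15 (chr4:156200819-156201068, minus strand): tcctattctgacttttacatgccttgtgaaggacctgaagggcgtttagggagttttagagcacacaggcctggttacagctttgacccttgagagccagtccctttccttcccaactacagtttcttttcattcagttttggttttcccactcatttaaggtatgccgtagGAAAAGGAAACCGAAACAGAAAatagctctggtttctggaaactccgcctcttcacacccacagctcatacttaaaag
Oas1a (chr5:120907526-120907775, minus strand): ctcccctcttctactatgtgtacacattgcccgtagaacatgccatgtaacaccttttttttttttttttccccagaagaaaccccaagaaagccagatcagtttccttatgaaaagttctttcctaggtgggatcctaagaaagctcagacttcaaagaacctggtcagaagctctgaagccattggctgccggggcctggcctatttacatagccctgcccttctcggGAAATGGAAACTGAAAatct
Gbp2 (chr3:142620413-142620662, plus strand): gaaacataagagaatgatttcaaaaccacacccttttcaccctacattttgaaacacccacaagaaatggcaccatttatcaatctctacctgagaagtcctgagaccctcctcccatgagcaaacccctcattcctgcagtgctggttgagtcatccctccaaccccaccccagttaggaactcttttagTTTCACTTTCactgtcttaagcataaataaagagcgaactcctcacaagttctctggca
Hspa1a (chr17:34972157-34972406, minus strand): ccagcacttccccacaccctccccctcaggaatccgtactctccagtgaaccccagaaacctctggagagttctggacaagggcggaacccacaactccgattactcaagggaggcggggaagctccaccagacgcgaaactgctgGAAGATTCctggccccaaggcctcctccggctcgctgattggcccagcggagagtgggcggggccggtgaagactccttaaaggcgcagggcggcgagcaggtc
Bglap (chr3:88384467-88384716, minus strand): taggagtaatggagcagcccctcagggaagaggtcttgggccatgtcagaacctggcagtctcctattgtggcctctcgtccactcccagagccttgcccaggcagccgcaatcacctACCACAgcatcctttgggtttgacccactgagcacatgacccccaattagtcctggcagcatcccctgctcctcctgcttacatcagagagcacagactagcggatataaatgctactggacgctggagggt
Mmp13 (chr9:7272264-7272513, plus strand): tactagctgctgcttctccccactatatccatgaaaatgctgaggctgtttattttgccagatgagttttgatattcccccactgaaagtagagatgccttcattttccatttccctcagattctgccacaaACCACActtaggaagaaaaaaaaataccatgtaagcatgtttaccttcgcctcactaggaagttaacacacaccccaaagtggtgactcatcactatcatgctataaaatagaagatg

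A match is a description of the letters in this window. Of the 305 genes, 217 had an entry in the promoter table, 102 higher and 115 lower in skin. The interferon element was found in 9 of the 102 higher genes (8.82%) and in 3 of the 115 lower genes (2.61%), against 3.04% of all 27025 promoters in the table and 2.65% of the 10315 promoters of tested genes. The heat shock element was found in 5.88% of the higher and 5.22% of the lower genes, against 6.78% of all promoters and 4.99% of those of tested genes. The Runx core was found in 6.86% of the higher and 9.57% of the lower genes, against 14.2% of all promoters and 10.1% of those of tested genes. The Runx share of the lower genes was thus not above that of all promoters.

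The skin libraries held 9830418 to 14149713 counts and the bone marrow libraries 18122495 to 39422062. Bone marrow 1 and 4 were almost the same (r = 0.997 across 11879 genes, against 0.590 to 0.876 for all other pairs within a population), yet differed by more than sampling noise (chi-square per degree of freedom 3.19). The skin libraries of equal number deviated together from their population means, with r = 0.225, 0.254 and 0.664 across genes, and may share a mouse. Pairs of unequal number among libraries 1 and 2 came close to the first 2 values, with r = 0.181 and 0.196. Pairs of a library numbered 3 with 1 or 2 had r of -0.431 to -0.317, so number 3 alone stood apart. The skin libraries numbered 3 also differed from the other skin libraries in sex-linked genes, as given further on. With 6 skin libraries from 3 mice, not all libraries are independent, and p-values over the 10 libraries are too small. With the skin libraries of equal number summed, 198 genes passed (123 higher and 75 lower in skin). With bone marrow 1 and 4 summed, 93 passed (32 higher and 61 lower), and with both kinds summed 115 passed (67 higher and 48 lower). Of the 305 genes, 25 of the 135 higher and 40 of the 170 lower ones passed in all 3 of these fits. A term for the earlier study leaves bone marrow 4 to carry the comparison, and 20 genes then passed, all lower in skin. Skin Ebf2- PαS 2 held T cell transcripts (Cd3e at 708 CPM), and without it 187 genes passed, 174 of them without overlap. The skin libraries numbered 3 held less ribosomal RNA (Rn45s at 0.593% and 0.170% of counts, against 3.04% to 12.5% in the others), and without both 262 genes passed, all 262 without overlap. In bulk RNA, fewer cells of a kind and less RNA per cell cannot be told apart.

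None of the genes behind the sort passed between the tissues. For each gene the 3 skin values are the lowest, the median and the highest of the 6 libraries, and the 4 bone marrow values stand in the order of libraries 1 to 4. The CD140a gene Pdgfra had levels of 599, 853 and 1116 CPM in skin against 1859.6, 1197, 719.9 and 1769 CPM in bone marrow (adjusted p = 0.352). For Ly6a, the gene of Sca1, they were 1075, 1356 and 2123 CPM in skin against 1232, 533, 970.5 and 1203 CPM in bone marrow (adjusted p = 0.507). For Itgav, the gene of CD51, they were 74.1, 139.6 and 207 CPM in skin against 207, 249, 164 and 191 CPM in bone marrow (adjusted p = 0.514). In each of these genes the groups overlapped. Ebf2 also overlapped, with 47.1, 115 and 317 CPM in skin against 337, 186, 141 and 330.3 CPM in bone marrow (adjusted p = 0.507). Ebf2 is the marker that split the skin populations, and its level was higher in all 3 skin Ebf2+ libraries than in any skin Ebf2- PαS library. None of these 4 genes passed in any of 27 alternative fits.

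The widest separations were found for cartilage and bone matrix genes and limb position genes, lower in skin, and for a mixed set of enzymes, receptors and position genes, higher in skin. Among genes with a mean of at least 10 CPM in the higher group, ranked by the gap between the nearest libraries of the groups, the 12 leading genes lower in skin were Chad, Clec3a, Cilp2, Mmp13, Hoxc10, Comp, Cytl1, Tbx4, Hoxa11, Dlx5, Ibsp and Prg4. The 12 leading genes higher in skin were Ifi202b, Rxfp1, Irx2, Ugt1a6b, Ugt1a6a, Plac8, Cyp4b1, Il1r2, Cd36, Ptpn5, Gdpd3 and Serpina3h. All 12 of the lower genes passed with bone marrow 1 and 4 summed and with the skin libraries summed by number. So did 11 of the 12 higher genes, Gdpd3 being the exception. With the term for the earlier study, 11 of the 12 lower genes passed, all but Ibsp, and none of the 12 higher genes did.

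**Figure D1:**
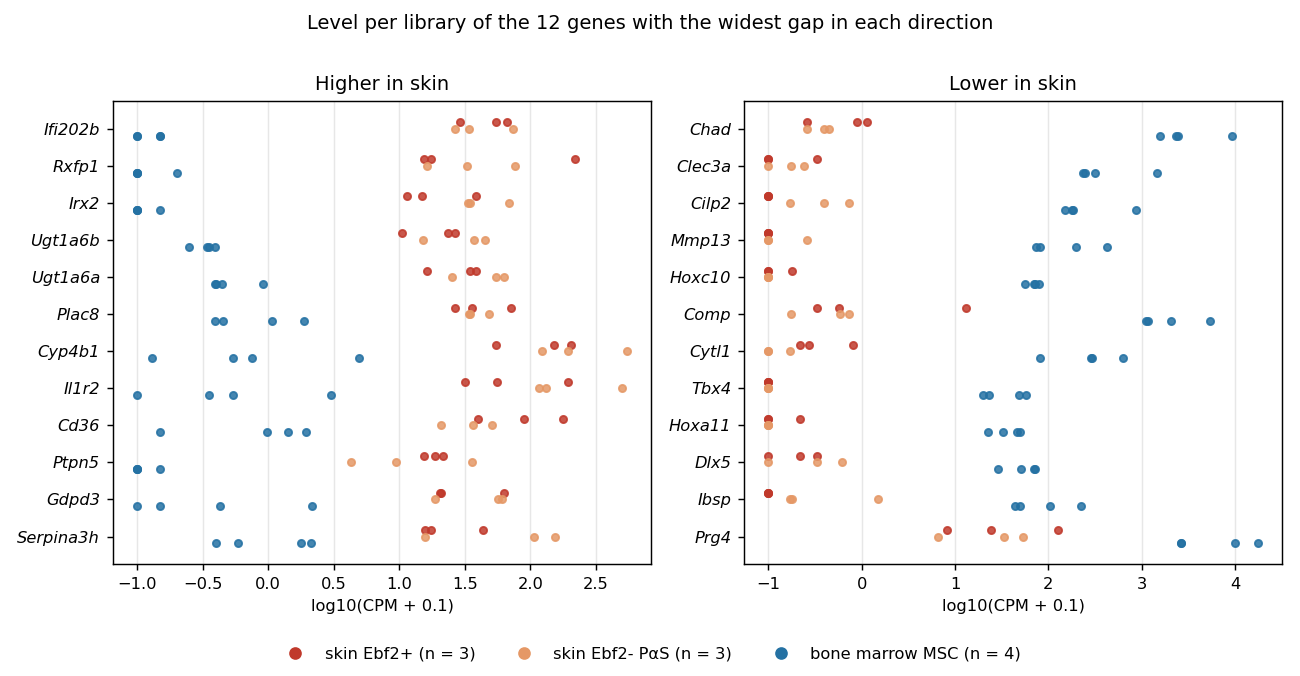
Level of the 12 genes with the widest gap in each direction, as log10(CPM + 0.1) on the horizontal axis, with one point per library coloured by population and one row per gene. In every row the red and orange points (skin Ebf2+, n = 3, and skin Ebf2- PαS, n = 3) lie on one side of the blue points (bone marrow MSC, n = 4). These genes were picked for that gap.

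Positional transcription factors differed in both directions. The posterior Hox genes Hoxc10, Hoxa11 and Hoxa10, which act in the posterior trunk and the limbs, were lower in skin, and Hoxc8, a gene of the thoracic trunk, was higher. Hoxc10 (Entrez 209448, chromosome 15, 102966796 to 102971898) stood at 0, 0 and 0.0784 CPM in skin against 71.8, 56.7, 78.6 and 70.2 CPM in bone marrow, and 5 of the 6 skin libraries had no read. With 1 read in skin, the ratio of bone marrow to skin was 5110.3-fold (95% counting interval 917 to 201845) (adjusted p = 6.95e-06). Hoxa11 stood at 0, 0 and 0.116 CPM in skin against 45.9, 22.7, 32.4 and 50.2 CPM in bone marrow (adjusted p = 0.000112), also with 1 read in skin. Hoxa11os, the transcript antisense to it, had 1 read in skin as well, and without the strand setting of the counting the reads of this pair cannot be told apart. Hoxa10 stood at 0, 0.0758 and 0.707 CPM in skin against 73.1, 38.1, 16 and 72.3 CPM in bone marrow (log2 fold change -8.21 ± 1.06, adjusted p = 0.0014). For Hoxc10, Hoxa11 and Hoxa10 every bone marrow library lay far above every skin library, and the highest skin value, of Hoxa10, was 0.707 CPM. Hoxc8 (Entrez 15426, chromosome 15, 102990539 to 102994275) stood at 19.8, 58.6 and 122 CPM in skin against 3.03, 5.02, 7.69 and 3.25 CPM in bone marrow (log2 fold change 3.73 ± 0.66, adjusted p = 0.0122). The skin libraries were all above the bone marrow ones for Hoxc8, but the call was lost with bone marrow 1 and 4 summed and with both kinds summed.

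Of 24 Hox genes tested, 1 was higher and 3 were lower in skin, and 20 did not pass. Among the 7 tested genes of paralog groups 9 to 13, 6 had a negative log2 fold change, with a median of -4.30 and 3 called. Among the 6 of groups 6 to 8, 4 had a positive one, with a median of 2.35 and 1 called. Among the 11 of groups 1 to 5, 5 were positive and 6 negative, with a median of -0.42 and none called.

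**Figure D2:**
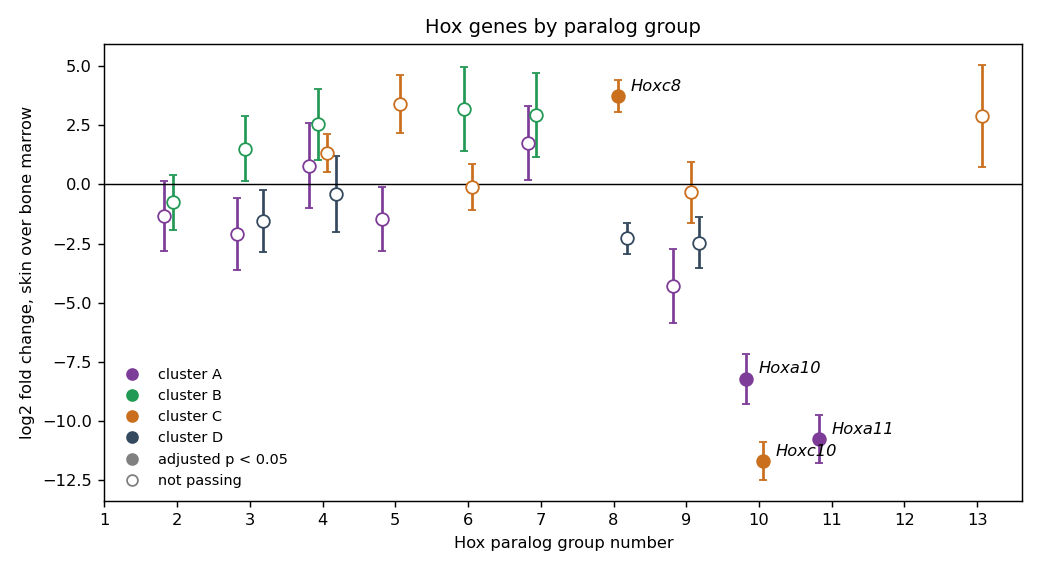
Log2 fold change of skin over bone marrow (vertical axis, with SE bars) for the 24 tested Hox genes, by paralog group number (horizontal axis) and cluster (colour). Filled points passed at an adjusted p below 0.05: Hoxc8 is above 0, and Hoxa10, Hoxa11 and Hoxc10 are below -8.

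Of 35 other positional transcription factors tested, 4 were higher and 4 lower in skin, with a median log2 fold change of 0.27. Tbx4 (Entrez 21387, chromosome 11, 85886367 to 85916097), a T-box factor that starts hindlimb outgrowth, had 0 reads in all 6 skin libraries against 20.1, 48.6, 57.3 and 23 CPM in bone marrow, at least 915-fold lower (adjusted p = 0.0014). Pitx1, the homeobox factor of hindlimb identity, stood at 0, 0 and 0.232 CPM in skin against 1.57, 12, 11.5 and 1.55 CPM in bone marrow (adjusted p = 0.0301). Bone marrow 2 and 3 held most of the Pitx1 signal, and the call was lost in all 3 fits on summed libraries. Pax1, a paired-box factor of the sclerotome, stood at 0, 0 and 0.628 CPM in skin against 4.75, 8.19, 36.4 and 5.65 CPM in bone marrow (log2 fold change -6.62 ± 1.47, adjusted p = 0.0348). Its call was lost in all 3 fits on summed libraries.

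On the skin side stood 2 members of the Iroquois family and the factors Zic1 and Lhx8. Irx2 (Entrez 16372, chromosome 13, 72624430 to 72634196) stood at 11.3, 33.9 and 69 CPM in skin against 0, 0, 0 and 0.050 CPM in bone marrow, with 1 read in bone marrow and a ratio of skin to bone marrow of 3158-fold (95% counting interval 567 to 124716) (adjusted p = 0.000345). Irx1, its neighbour on chromosome 13, stood at 4.53, 12.2 and 31.5 CPM in skin against 0, 0, 0.541 and 0 CPM in bone marrow (log2 fold change 6.73 ± 1.57, adjusted p = 0.0415). Irx2 passed in 25 of 27 alternative fits and Irx1 in 10 of 27. Zic1, a zinc finger factor of dorsal mesoderm and neural tissue, stood at 1.65, 21.7 and 26.3 CPM in skin against 0.0979, 0.0488, 0.030 and 0 CPM in bone marrow (log2 fold change 8.34 ± 1.40, adjusted p = 0.00895). The 2 lowest Zic1 values were those of the skin libraries numbered 3, and all 6 still lay above bone marrow. Lhx8, a LIM homeobox factor, had 0 reads in bone marrow and 0.0871, 6.04 and 35.8 CPM in skin, at least 343-fold higher (adjusted p = 0.0298). Its lowest skin value rests on 1 read in skin Ebf2+ 2, within what a count of 0 allows, and the call was lost with bone marrow 1 and 4 summed.

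The 6 cartilage genes that passed were all lower in skin. All 18 chondrocyte genes tested had a negative log2 fold change, with a median of -3.94, and 6 passed and 12 did not. Chad (Entrez 12643, chromosome 11, 94565047 to 94569127), chondroadherin, a leucine-rich matrix protein that binds cartilage cells, stood at 0.157, 0.319 and 1.05 CPM in skin against 2312, 1555, 9355 and 2431 CPM in bone marrow (log2 fold change -13.06 ± 0.88, adjusted p = 6.95e-06). Comp, cartilage oligomeric matrix protein, stood at 0.0732, 0.474 and 13 CPM in skin against 1127, 2076, 5402 and 1161 CPM in bone marrow (log2 fold change -9.93 ± 1.42, adjusted p = 0.00264). Prg4, the joint lubricant lubricin, stood at 6.51, 28.6 and 128 CPM in skin against 2670.1, 9916, 17653 and 2631 CPM in bone marrow (log2 fold change -7.59 ± 0.97, adjusted p = 0.00136). For each of these the lowest bone marrow library was far above the highest skin library, and for Comp and Prg4 the highest skin library was skin Ebf2+ 2. Clec3a, a cartilage lectin, stood at 0, 0.0366 and 0.232 CPM in skin against 247, 316, 1473 and 234 CPM in bone marrow (adjusted p = 1.58e-05). Cilp2, a matrix protein of cartilage layers, stood at 0, 0.0345 and 0.628 CPM in skin against 179.6, 149, 878 and 183 CPM in bone marrow (adjusted p = 0.000139), and bone marrow 3 held its highest level. Cytl1, a cytokine of cartilage, stood at 0, 0.0926 and 0.706 CPM in skin against 285, 82.2, 638 and 296 CPM in bone marrow (log2 fold change -10.78 ± 0.99, adjusted p = 9.61e-05). Chad passed in 27 of 27 alternative fits, Clec3a in 26 of 26 and Comp and Prg4 each in 26 of 27.

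Among bone genes, 8 of 25 tested genes of osteoblasts and bone matrix passed, all lower in skin, and 17 did not, with a median of -2.19. Mmp13 (Entrez 17386, chromosome 9, 7272514 to 7283333), the collagenase of cartilage and bone remodelling, stood at 0, 0 and 0.157 CPM in skin against 81.7, 421, 198 and 73.3 CPM in bone marrow. With 2 reads in skin, its ratio of bone marrow to skin was 7133-fold (95% counting interval 1975 to 58897) (adjusted p = 1.58e-05). Ibsp, bone sialoprotein, stood at 0, 0.0345 and 1.39 CPM in skin against 49.3, 105, 223 and 43.5 CPM in bone marrow (log2 fold change -8.56 ± 1.19, adjusted p = 0.00227). Bglap, the bone hormone osteocalcin, stood at 0, 0 and 0.157 CPM in skin against 10.8, 64.4, 18.7 and 8.86 CPM in bone marrow (log2 fold change -8.72 ± 1.23, adjusted p = 0.00243). Its neighbour Bglap2, a near copy with which it may share reads, stood at 0, 0 and 0.549 CPM in skin against 11, 64.4, 19.4 and 9.86 CPM in bone marrow (log2 fold change -7.68 ± 1.33, adjusted p = 0.0105). Bone marrow 2 had the highest level of both osteocalcin genes. The Bglap2 call was lost with the skin libraries summed and held with bone marrow 1 and 4 summed and with both kinds summed. Dlx5 (Entrez 13395, chromosome 6, 6877801 to 6882068), a homeobox factor of bone formation, stood at 0, 0.176 and 0.512 CPM in skin against 69.5, 50.9, 28.5 and 71.3 CPM in bone marrow (log2 fold change -8.15 ± 0.92, adjusted p = 0.000563). Phex, an endopeptidase of phosphate balance in bone cells, stood at 0, 0.50 and 1.32 CPM in skin against 126, 96, 28.9 and 119.6 CPM in bone marrow (log2 fold change -7.29 ± 0.91, adjusted p = 0.00121). Over these 6 genes the highest skin value was 1.39 CPM, for Ibsp in skin Ebf2- PαS 1. The other 2 were Tnfrsf11b, osteoprotegerin, the decoy receptor that limits bone resorption (log2 fold change -3.53 ± 0.84, adjusted p = 0.0437), and Ank, a pyrophosphate transporter (log2 fold change -2.02 ± 0.48, adjusted p = 0.0432). Both lost the call in all 3 fits on summed libraries.

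Other matrix genes of tendon, cartilage and connective tissue were among the 170 genes lower in skin. Fmod, fibromodulin, a small proteoglycan that binds collagen fibrils, stood at 2.96, 13.9 and 80.2 CPM in skin against 1283, 1173, 3749 and 1324 CPM in bone marrow (log2 fold change -6.36 ± 0.86, adjusted p = 0.00177). Kera, keratocan, of the same family, stood at 0, 1.87 and 7.75 CPM in skin against 60.4, 118, 177 and 56.7 CPM in bone marrow (log2 fold change -5.32 ± 0.89, adjusted p = 0.00889). Prelp, another member of that family, was abundant in both groups, at 427, 746 and 835 CPM in skin against 4702, 3521, 14413 and 4901 CPM in bone marrow (log2 fold change -3.34 ± 0.46, adjusted p = 0.002). The groups did not overlap for any of these 3 proteoglycans. Scx, scleraxis, the transcription factor of tendon cells, stood at 0, 0.0871 and 0.471 CPM in skin against 17.8, 4.49, 25.5 and 20.4 CPM in bone marrow (log2 fold change -6.77 ± 1.26, adjusted p = 0.0161). Thbs4, a thrombospondin of tendon and muscle, stood at 157, 346 and 783 CPM in skin against 1793, 2182, 4455 and 1842 CPM in bone marrow (log2 fold change -2.72 ± 0.48, adjusted p = 0.0122). Fn1, fibronectin, stood at 1803, 3713 and 4416 CPM in skin against 10547, 15834, 20919 and 10579 CPM in bone marrow (log2 fold change -2.04 ± 0.39, adjusted p = 0.0171). Of these 6, Fmod, Kera and Thbs4 passed all 3 fits on summed libraries. Itga10, a collagen-binding integrin of cartilage cells, passed them too, at 0.157, 1.31 and 5.4 CPM in skin against 35.1, 69, 183 and 35.5 CPM in bone marrow (log2 fold change -5.27 ± 0.92, adjusted p = 0.0107).

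**Figure D3:**
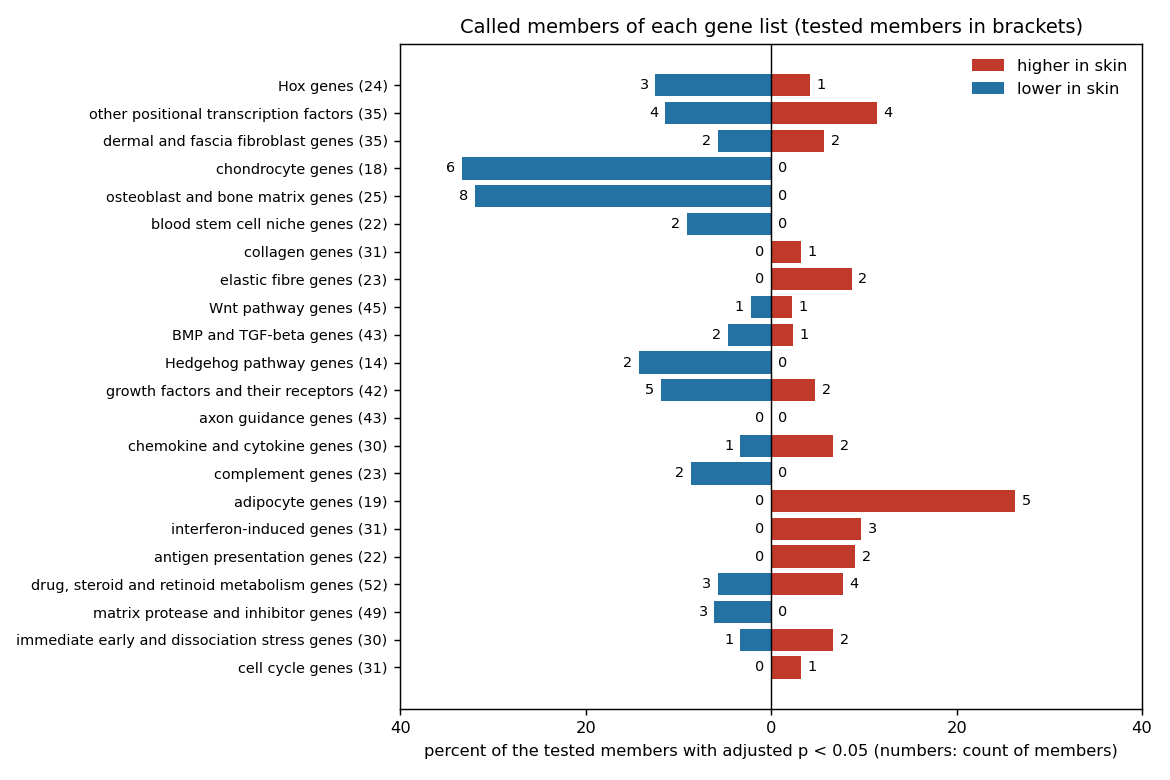
Share of the tested members of each of 22 gene lists that passed at an adjusted p below 0.05, to the right for genes higher in skin and to the left for genes lower in skin, with the number of members beside each bar. The left side is longest for the chondrocyte (6 of 18) and osteoblast (8 of 25) lists and the right side for the adipocyte list (5 of 19). Over all tested genes 1.22% were higher and 1.38% lower.

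Among signalling genes lower in skin were Hedgehog co-receptors and several growth factors. Of 14 Hedgehog genes tested, 0 were higher and 2 lower in skin (median -0.38). Gas1 (Entrez 14451, chromosome 13, 60174405 to 60177535), a co-receptor that helps cells bind Hedgehog ligands, stood at 75, 77.8 and 229 CPM in skin against 845, 732, 676 and 816 CPM in bone marrow (log2 fold change -2.81 ± 0.40, adjusted p = 0.00243). Boc, another co-receptor, stood at 2.53, 28.9 and 91.4 CPM in skin against 293, 209, 325 and 300.4 CPM in bone marrow (log2 fold change -2.86 ± 0.70, adjusted p = 0.049). Gas1 passed in 24 of 27 alternative fits and Boc in 9 of 27. Of 42 growth factors and receptors tested, 2 were higher and 5 lower (median 0.07). Fgf1, a fibroblast growth factor, stood at 0, 0.0345 and 2.27 CPM in skin against 143, 18.8, 11.8 and 139 CPM in bone marrow (log2 fold change -7.14 ± 1.36, adjusted p = 0.0171), and bone marrow 1 and 4 held its 2 highest levels. Fgf9, which acts in limb and joint development, stood at 0.116, 0.225 and 5.26 CPM in skin against 8.61, 24.5, 131 and 8.36 CPM in bone marrow (log2 fold change -5.17 ± 1.23, adjusted p = 0.0434). Igf1 and Igf2, the insulin-like growth factors, changed by -1.50 ± 0.34 and -3.15 ± 0.74 on the log2 scale (adjusted p = 0.0354 and 0.0418). Ccn2, connective tissue growth factor, stood at 77.9, 114 and 175 CPM in skin against 580.0, 435, 1480.4 and 579 CPM in bone marrow (log2 fold change -2.68 ± 0.42, adjusted p = 0.00545). Of these 5 lower genes, Ccn2 was the one that passed with bone marrow 1 and 4 summed, and Fgf1 was the one that passed with the skin libraries summed.

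Inhba, the activin A subunit, stood at 1.48, 3.95 and 12.6 CPM in skin against 23.9, 29.6, 206 and 25.9 CPM in bone marrow (log2 fold change -3.84 ± 0.77, adjusted p = 0.0224), with its highest level in bone marrow 3, and lost the call with the skin libraries summed and with both kinds summed. Sfrp4, a secreted Wnt inhibitor, stood at 250.4, 456 and 679 CPM in skin against 1329, 1487, 1289 and 1304 CPM in bone marrow (log2 fold change -1.58 ± 0.35, adjusted p = 0.0348), while Apcdd1, a Wnt inhibitor of hair follicles and dermis, stood at 17.3, 101 and 314 CPM in skin against 7.0, 2.34, 15.9 and 8.81 CPM in bone marrow (log2 fold change 3.96 ± 0.86, adjusted p = 0.0322). They were the only 2 of 45 tested Wnt genes to pass, in opposite directions, and both lost the call with bone marrow 1 and 4 summed. Sfrp4 lost it in all 3 fits on summed libraries. Retinoid genes that were lower in skin were Aldh1a2, Cyp26a1 and Dhrs3. Aldh1a2, which makes retinoic acid, stood at 0, 0.765 and 2.75 CPM in skin against 78.3, 42.2, 12.5 and 79.6 CPM in bone marrow (log2 fold change -5.54 ± 1.19, adjusted p = 0.0301). Cyp26a1, which degrades it, had 0 reads in skin against 1.47, 6.34, 1.86 and 1.8 CPM in bone marrow, at least 70.5-fold lower (adjusted p = 0.0391). Dhrs3, a retinal reductase, changed by -1.98 ± 0.44 on the log2 scale (adjusted p = 0.0344). All 3 calls were lost with either kind of libraries summed.

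Among 22 genes of the blood stem cell niche, 2 passed, both lower in skin (median -0.85). Foxc1, a forkhead factor of marrow stroma, stood at 0.805, 6.2 and 14.1 CPM in skin against 23.1, 74.6, 151 and 21.9 CPM in bone marrow (log2 fold change -3.44 ± 0.81, adjusted p = 0.0421), and Esm1, the other, overlapped between the groups. The Foxc1 call was lost with either kind of libraries summed and held with both kinds summed. Lepr, the leptin receptor that marks marrow stroma, lay without overlap at 39.7, 55.6 and 203 CPM in skin against 403, 338, 326 and 368 CPM in bone marrow but did not pass (adjusted p = 0.0744). Cxcl12, the chemokine that holds blood stem cells in the marrow, overlapped at 214, 601 and 1337 CPM in skin against 1611, 1732, 259 and 1539.7 CPM in bone marrow (adjusted p = 0.477). In bone marrow 3 the level of Cxcl12 was below that of 5 of the 6 skin libraries. Of 23 complement genes tested, 2 passed, both lower in skin (median 0.62). Clu, clusterin, stood at 0.232, 17.6 and 110.2 CPM in skin against 596, 609, 2639 and 603 CPM in bone marrow (log2 fold change -4.92 ± 1.13, adjusted p = 0.0391), with its highest level in bone marrow 3. The Clu call was lost in all 3 fits on summed libraries. Htra4, a secreted serine protease, was lower in skin at 1.41, 3.25 and 10.7 CPM in skin against 75.4, 247, 316 and 76.6 CPM in bone marrow (log2 fold change -5.47 ± 0.68, adjusted p = 0.00119), and Serpine2, a protease inhibitor, at 13.7, 55.8 and 86.2 CPM in skin against 622, 491, 513 and 632 CPM in bone marrow (log2 fold change -3.48 ± 0.52, adjusted p = 0.00372). With Mmp13 they were the 3 of 49 tested matrix proteases and inhibitors that passed.

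Several enzymes of drug and steroid metabolism were higher in skin. Of 52 tested genes of drug, steroid and retinoid metabolism, 4 were higher and 3 lower in skin (median 0.44). Cyp4b1 (Entrez 13120, chromosome 4, 115624698 to 115647721), a cytochrome P450 of fatty acids and drugs, stood at 54.7, 172 and 543 CPM in skin against 0.44, 4.83, 0.030 and 0.651 CPM in bone marrow (log2 fold change 7.15 ± 1.23, adjusted p = 0.0101). Akr1c14, an aldo-keto reductase that acts on steroids, stood at 49.9, 162 and 359 CPM in skin against 3.87, 8.1, 3.64 and 4.5 CPM in bone marrow (log2 fold change 5.28 ± 0.66, adjusted p = 0.00122). Akr1c18, its relative that inactivates progesterone, had 0 reads in bone marrow and 2.09, 42.9 and 112 CPM in skin, at least 1515-fold higher (adjusted p = 0.00243). Hsd11b1, which activates glucocorticoids, stood at 41.2, 69.3 and 108 CPM in skin against 21.1, 6.19, 9.07 and 23.2 CPM in bone marrow (log2 fold change 2.27 ± 0.52, adjusted p = 0.0391). The first 3 passed all 3 fits on summed libraries and Hsd11b1 none of them. Ugt1a6a (Entrez 94284, chromosome 1, 88134809 to 88220002) and Ugt1a6b, which add glucuronic acid to drugs, stood at 16.2, 36.4 and 62.6 CPM and 10.5, 25 and 44.8 CPM in skin, and no bone marrow library reached 1 CPM for either (adjusted p = 0.000591 and 0.000849). These 2 genes share exons, so how their reads divide between them is uncertain.

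The receptors of hormones and cytokines described next were higher in skin and were picked with their values in view, not from a list. Rxfp1 (Entrez 381489, chromosome 3, 79641600 to 79737951), the relaxin receptor, stood at 15.4, 24.9 and 219 CPM in skin against 0, 0, 0 and 0.10 CPM in bone marrow, with 2 reads in bone marrow and a ratio of skin to bone marrow of 2960.3-fold (95% counting interval 819 to 24444) (adjusted p = 0.00158). Il1r2, the decoy receptor that binds interleukin-1, stood at 31.7, 124 and 496 CPM in skin against 0, 0.439, 2.88 and 0.25 CPM in bone marrow (log2 fold change 7.53 ± 1.31, adjusted p = 0.0108). Il31ra, the receptor chain of the itch cytokine interleukin-31, stood at 14.8, 26.1 and 73.4 CPM in skin against 1.47, 0.39, 1.95 and 2.2 CPM in bone marrow (log2 fold change 4.44 ± 0.75, adjusted p = 0.00916). Il4ra, the receptor chain of interleukin-4 and interleukin-13, stood at 188, 322 and 474 CPM in skin against 59.7, 61.7, 15 and 64.3 CPM in bone marrow (log2 fold change 2.72 ± 0.50, adjusted p = 0.0146). Agtr1a, the angiotensin II receptor, stood at 46.5, 58.6 and 76.8 CPM in skin against 13.1, 22, 7.54 and 12.9 CPM in bone marrow (log2 fold change 2.14 ± 0.43, adjusted p = 0.0224). In skin each of these receptors was present in all 6 libraries, and in bone marrow Rxfp1 was detected in library 4 alone. Rxfp1 and Il1r2 passed all 3 fits on summed libraries, Il31ra passed with either kind summed but not with both, Il4ra passed with the skin libraries summed, and Agtr1a passed none.

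Of 23 elastic fibre genes tested, 2 passed, both higher in skin (median 0.22). Eln, which encodes elastin, stood at 261, 488 and 1128 CPM in skin against 138, 157, 28.5 and 143 CPM in bone marrow (log2 fold change 2.26 ± 0.55, adjusted p = 0.045), with its lowest level in bone marrow 3. Efemp1, fibulin-3, stood at 348, 847 and 1627 CPM in skin against 272, 151, 82.3 and 249.5 CPM in bone marrow (log2 fold change 2.27 ± 0.50, adjusted p = 0.0328). Neither passed with either kind of libraries summed. Of 31 collagen genes 1 passed, Col17a1, an epithelial collagen that overlapped between the groups. Col3a1, a fibrillar collagen of dermis, overlapped at 6737, 9145 and 55408 CPM in skin against 5287, 5782, 7677 and 5048 CPM in bone marrow (adjusted p = 0.216).

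Of 19 tested adipocyte genes 5 passed, all higher in skin (median 0.71), and each encodes a protein that binds or carries lipids. Cd36 (Entrez 12491, chromosome 5, 17781690 to 17888959), a fatty acid transporter, stood at 20.7, 45.5 and 176 CPM in skin against 0.881, 1.85, 1.32 and 0.050 CPM in bone marrow (log2 fold change 6.06 ± 0.97, adjusted p = 0.00614). Fabp5, a fatty acid carrier also of skin epithelium, stood at 3.57, 7.69 and 22.8 CPM in skin against 0, 0.293, 0.421 and 0.050 CPM in bone marrow (log2 fold change 5.60 ± 1.32, adjusted p = 0.0421). Fabp4, the fatty acid carrier of fat cells, stood at 1.88, 33.1 and 138 CPM in skin against 1.13, 1.76, 1.14 and 0.20 CPM in bone marrow (log2 fold change 5.34 ± 1.13, adjusted p = 0.0292), with its lowest skin library close to the highest bone marrow library. Apoe, a lipoprotein component, stood at 338, 739.5 and 1632 CPM in skin against 146, 98, 63.2 and 145 CPM in bone marrow (log2 fold change 2.99 ± 0.56, adjusted p = 0.017). Apoc1, the gene next to it, stood at 1.66, 3.28 and 31.4 CPM in skin against 0.0489, 0, 0 and 0 CPM in bone marrow (adjusted p = 0.0203). Cd36 was the one of the 5 that passed with bone marrow 1 and 4 summed. Ucp2, a carrier of the inner mitochondrial membrane, was not on the list and passed all 3 fits on summed libraries, at 55.2, 109 and 197 CPM in skin against 7.49, 6.73, 6.7 and 8.66 CPM in bone marrow (log2 fold change 3.99 ± 0.46, adjusted p = 0.000661).

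Of 35 genes of dermal and fascia fibroblasts tested, 2 were higher and 2 lower in skin (median 0.37): Plac8 and Apcdd1 against Sfrp4 and Thbs4. Of 30 chemokine and cytokine genes, 2 were higher and 1 lower (median 0.93). Ccl2, which attracts monocytes, stood at 42.2, 137 and 347 CPM in skin against 15.7, 30.6, 27.4 and 14.8 CPM in bone marrow (log2 fold change 2.92 ± 0.63, adjusted p = 0.0306). Cxcl13, which attracts B cells, stood at 29.8, 59.3 and 156 CPM in skin against 2.45, 4.44, 23.5 and 2.75 CPM in bone marrow (log2 fold change 3.20 ± 0.77, adjusted p = 0.0447). Ackr4, a chemokine scavenger, stood at 1.05, 6.54 and 18.9 CPM in skin against 62.3, 64.4, 44.2 and 60.4 CPM in bone marrow (log2 fold change -2.87 ± 0.71, adjusted p = 0.0494). None of these 3 overlapped between the groups, and all 3 calls were lost with bone marrow 1 and 4 summed, that of Cxcl13 also with the skin libraries summed. Of 43 genes of BMP and TGF-beta signalling, 1 was higher and 2 lower (median -0.07), and Inhba was the one without overlap. Of 31 cell cycle genes, 28 had a positive log2 fold change and 1 passed (median 1.31), Tyms, which makes thymidylate, at 10.4, 16 and 122 CPM in skin against 1.27, 1.8, 3.97 and 1.6 CPM in bone marrow (log2 fold change 4.21 ± 0.91, adjusted p = 0.0301), a call lost with bone marrow 1 and 4 summed. Of 43 axon guidance genes none passed (median 0.21).

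Interferon-induced and antigen presentation genes mostly had positive log2 fold changes, and few passed. Of 31 interferon-induced genes tested, 25 had a positive log2 fold change and 3 passed, all higher in skin (median 0.63). Of 22 antigen presentation genes, 20 were positive and 2 passed (median 2.18). Gbp2, an interferon-induced GTPase, stood at 81.9, 98.7 and 147 CPM in skin against 27.8, 28.6, 20.9 and 26.9 CPM in bone marrow (log2 fold change 2.07 ± 0.37, adjusted p = 0.0119). Oas1a, an antiviral enzyme, stood at 7.44, 25.4 and 35 CPM in skin against 0, 1.02, 0 and 0 CPM in bone marrow (log2 fold change 6.49 ± 1.54, adjusted p = 0.0429), and bone marrow 2 was the one bone marrow library with reads of it. Isg15, a ubiquitin-like modifier, stood at 4.76, 18 and 59.9 CPM in skin against 0.196, 1.66, 1.29 and 0.35 CPM in bone marrow (log2 fold change 4.70 ± 0.98, adjusted p = 0.0276). These 3 genes hold the capitalised elements printed above, and none passed with bone marrow 1 and 4 summed, which also held for Psmb8 and Cd74. Psmb8, a subunit of the immunoproteasome, stood at 22.1, 55.6 and 114 CPM in skin against 8.32, 11.7, 13.3 and 9.81 CPM in bone marrow (log2 fold change 2.54 ± 0.50, adjusted p = 0.0204). Cd74, the class II invariant chain of antigen-presenting cells, stood at 0.465, 21.2 and 267 CPM in skin against 0.196, 0.244, 0.12 and 0.30 CPM in bone marrow (log2 fold change 8.20 ± 1.63, adjusted p = 0.022). Its highest value was that of skin Ebf2- PαS 2, the library with T cell transcripts, and its lowest skin value was close to bone marrow. Cd74 passed with that library left out, but not with a replicate block or with the skin number as a random effect.

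Heat shock genes of the 70 kDa family were higher in skin. Hspa1a (Entrez 193740, chromosome 17, 34969359 to 34972156) stood at 945, 1649 and 2709 CPM in skin against 116, 219, 175 and 113 CPM in bone marrow (log2 fold change 3.56 ± 0.44, adjusted p = 0.00121). Hspa1b stood at 626, 1509 and 2879 CPM in skin against 97.1, 176, 116 and 92.2 CPM in bone marrow (log2 fold change 3.73 ± 0.49, adjusted p = 0.00158). Hspa1a and Hspa1b are near-identical copies, with upstream windows equal at 247 of 250 bases (98.8%), and reads may have been split between them. Hspa1l, the neighbour in the same cluster, stood at 24.7, 68.3 and 169 CPM in skin against 3.87, 5.07, 3.88 and 3.45 CPM in bone marrow (log2 fold change 4.32 ± 0.58, adjusted p = 0.00169). All 3 passed the 3 fits on summed libraries. Of 30 immediate early and stress genes tested, 2 were higher (Hspa1a and Hspa1b), 1 was lower (Klf2, log2 fold change -1.92 ± 0.37, adjusted p = 0.0195) and 27 did not pass. Klf2 lost its call in all 3 fits on summed libraries. The immediate early and stress genes also respond to tissue digestion, and the part of handling in these results was not tested.

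Genes known to differ between mouse strains were on the list. Ifi202b (Entrez 26388, chromosome 1, 173962569 to 173982844), an interferon-inducible DNA sensor known to be scarcely expressed in C57BL/6 mice, stood at 26.2, 44.3 and 73.6 CPM in skin against 0.0489, 0, 0 and 0.050 CPM in bone marrow with 2 reads in bone marrow, a ratio of skin to bone marrow of 2223-fold (95% counting interval 615 to 18356) (adjusted p = 8.22e-05). It had the widest gap of the genes higher in skin. The related genes Ifi205, Ifi211 and Mndal of the same chromosome 1 cluster were also higher in skin, by 2.32 ± 0.57, 2.27 ± 0.49 and 1.93 ± 0.47 on the log2 scale (adjusted p = 0.0495, 0.0298 and 0.0447). Nnt, a mitochondrial enzyme partly deleted in the C57BL/6J substrain, stood at 18.4, 60.1 and 78.2 CPM in skin against 6.56, 9.36, 14.1 and 7.11 CPM in bone marrow (log2 fold change 2.47 ± 0.54, adjusted p = 0.0318), and the labels do not name the substrain. The class I genes H2-Q2 and H2-Bl, whose sequences differ between mouse strains, were higher by 3.54 ± 0.86 and 3.33 ± 0.80 (adjusted p = 0.0456 and 0.0438). Of these genes, Ifi202b passed all 3 fits on summed libraries and the other 6 passed none of them. Kdm5d, on the Y chromosome, stood at 0, 0.0784 and 1.96 CPM in skin against 41.9, 9.27, 23.4 and 38.4 CPM in bone marrow (log2 fold change -5.64 ± 1.32, adjusted p = 0.0417) and had reads in every bone marrow library and in 3 of the 6 skin libraries. Its call was lost in all 3 fits on summed libraries, and the Y-linked genes Ddx3y (adjusted p = 0.424), Eif2s3y (adjusted p = 0.507) and Uty (adjusted p = 0.481) overlapped between the groups and did not pass. Xist, on the X chromosome, overlapped between the groups and did not pass (adjusted p = 0.929). It stood at 132 and 48.9 CPM in the skin libraries numbered 3 and at 0.391 CPM in bone marrow 3. The other libraries had 1673 to 3367 CPM of Xist. Among the skin libraries, those numbered 3 had the highest levels of Ddx3y (6.51 and 18.2 CPM), Eif2s3y (2.43 and 7.15 CPM) and Uty (1.41 and 1.96 CPM). For Kdm5d, skin Ebf2- PαS 2 (1.17 CPM) lay above skin Ebf2+ 3 (0.157 CPM). Within skin, the library number and the level of most of these sex-linked genes thus varied together. Kdm5d was highest in bone marrow 1 and 4, where Xist stood at 2208 and 2002 CPM. Strain and tissue cannot be told apart for any of the 305 genes.

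Markers of some other cell types were higher in the skin group, above all those of keratinocytes. Erythroid and melanocyte markers had lower median sums in skin (8.59 against 87.9 CPM and 42.1 against 58.8 CPM in bone marrow). The 22 measured keratinocyte markers summed to 28.3, 634 and 1474 CPM in skin (lowest, median, highest) and to 54.4, 49.8, 16.4 and 55.2 CPM in bone marrow 1 to 4. The sums overlapped through skin Ebf2+ 2, in which 11 of the 22 were at 0. Of 20 tested, 13 were higher and 0 lower, and 5 lay without overlap: Krt5, Krt10, Krt14, Trp63 and Epcam. The median log2 fold change of the list was 8.93, or 8.22 with genes without a bone marrow read at their lower bound. Krt14, a keratin of the basal epidermis, had 0 reads in bone marrow and 0.349, 66.2 and 267 CPM in skin, at least 2976-fold higher (adjusted p = 0.0226). Krt5, its partner, stood at 0.174, 97.9 and 224 CPM in skin against 0.0489, 0, 0 and 0 CPM in bone marrow (adjusted p = 0.00432). Epcam, an adhesion molecule of epithelia, had 0 reads in bone marrow and 2.55, 5.86 and 55.9 CPM in skin (adjusted p = 0.0161). The hair follicle keratins Krt25 and Krt27 were on the list of 305 too, with 0.174, 29.7 and 317 CPM and 0.207, 14.9 and 38.8 CPM in skin. The sort as labelled names no keratinocyte marker among those left out, and the part of keratinocyte RNA in these results was not tested.

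**Figure D4:**
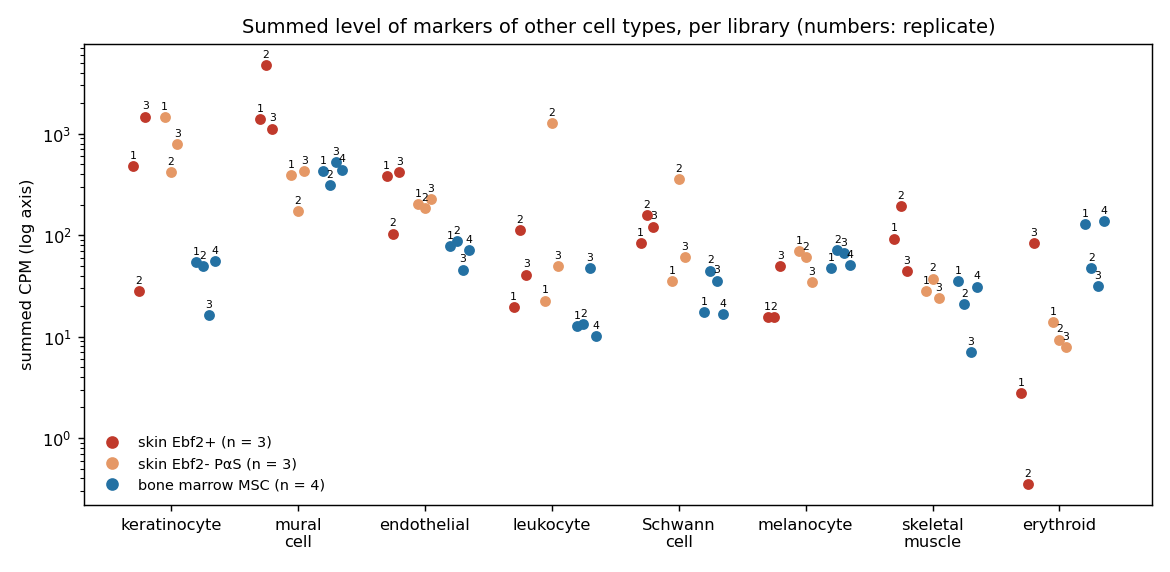
Summed CPM (log axis) of the measured markers of 8 other cell types in each library, with points coloured by population and numbered by replicate. Keratinocyte sums reach 1474 CPM in skin against at most 55.2 CPM in bone marrow, and the leukocyte sum of skin Ebf2- PαS 2 is 1283 CPM.

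Of 16 tested mural cell markers, 3 were higher in skin: Kcnj8, a potassium channel of pericytes (log2 fold change 4.08 ± 0.84, adjusted p = 0.0259), Vtn, vitronectin (log2 fold change 3.83 ± 0.93, adjusted p = 0.047), and Myl9, a smooth muscle myosin light chain (log2 fold change 3.88 ± 0.73, adjusted p = 0.017). The sums of the 16 stood at 1403, 4765 and 1124 CPM in skin Ebf2+ and 389, 173 and 428 CPM in skin Ebf2- PαS, in the order of libraries 1 to 3, against 431, 313, 528 and 442 CPM in bone marrow. All 3 Ebf2+ sums lay above the highest bone marrow sum, and all 3 PαS sums lay below it. Myl9 and Vtn were also higher in skin Ebf2+ than in skin Ebf2- PαS in each of the 3 library numbers. Kcnj8 was not: it stood at 15.5, 25.4 and 39.7 CPM in skin Ebf2+ 1 to 3 against 57.1, 17.4 and 145 CPM in skin Ebf2- PαS 1 to 3. It was thus higher in PαS for numbers 1 and 3. Of 8 tested endothelial markers, 1 was higher, Kdr, the main receptor of vascular endothelial growth factor, at 9.07, 23.6 and 33.5 CPM in skin against 0.343, 2.19, 0.0601 and 0.050 CPM in bone marrow (log2 fold change 5.10 ± 1.15, adjusted p = 0.0371). None of the calls of Kcnj8, Vtn, Myl9 and Kdr held with bone marrow 1 and 4 summed. The 9 endothelial markers summed to 104, 215 and 417 CPM in skin, above 78, 86.9, 45.8 and 71.1 CPM in bone marrow. Tek, the angiopoietin receptor, made up most of that sum in 5 of the 6 skin libraries and did not pass, at 19.3, 177 and 341 CPM in skin against 69.1, 48.2, 26.6 and 66.6 CPM in bone marrow (adjusted p = 0.153). Pecam1, which encodes CD31, was at 0 in 3 skin libraries and stood at 0, 0.0393 and 20.9 CPM in skin against 5.38, 6.34, 1.95 and 3.55 CPM in bone marrow (adjusted p = 0.984). Leukocyte markers summed to 19.4, 45.3 and 1283 CPM in skin against 12.6, 13.3, 47 and 10.2 CPM in bone marrow, and Cd74 was the one of 7 tested to pass. None of the tested melanocyte (4), Schwann cell (6), erythroid (3) or skeletal muscle (4) markers passed. The part of vessel wall cells in the mural and endothelial results was not tested.

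The 305 genes were looked at within skin as well, where the choice of genes fixed that both populations lie on the same side of bone marrow. No gene of the 305, and none of all genes tested, passed between skin Ebf2+ and skin Ebf2- PαS in edgeR's fit of 3 groups, and the lowest adjusted p among the 305 was 0.356. That fit took no account of the library number, and 502 of all tested genes and 25 of the 305 had an unadjusted p below 0.05. With the number as a replicate block within skin, 2 of all tested genes passed, Epas1 and Cyp2f2, and 0 of the 305. In that fit 731 of all 13740 tested genes and 33 of the 305 had an unadjusted p below 0.05. A missed threshold is no evidence of equal levels. The median absolute log2 difference between the skin populations was 0.68 for the 305 genes, against 0.54 for all tested genes. Of the 305, 47 differed by more than 4-fold, a count not made for all tested genes. Some of these differences rest on few reads, such as Ibsp (-6.14 on the log2 scale, 21 reads in skin) and Cilp2 (-5.49, 13 reads in skin). Cd36 averaged 101 ± 68.9 CPM in the Ebf2+ libraries and 36.1 ± 15.2 CPM in the PαS libraries (SD, n = 3 each), and the populations overlapped. Plac8, a gene of deep dermal fibroblasts, averaged 44.6 ± 23.8 CPM in the Ebf2+ libraries and 38.7 ± 8.14 CPM in the PαS libraries (SD, n = 3 each), against 0.294, 0.975, 1.77 and 0.35 CPM in bone marrow (log2 fold change 5.60 ± 0.74, adjusted p = 0.00158).

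**Figure D5:**
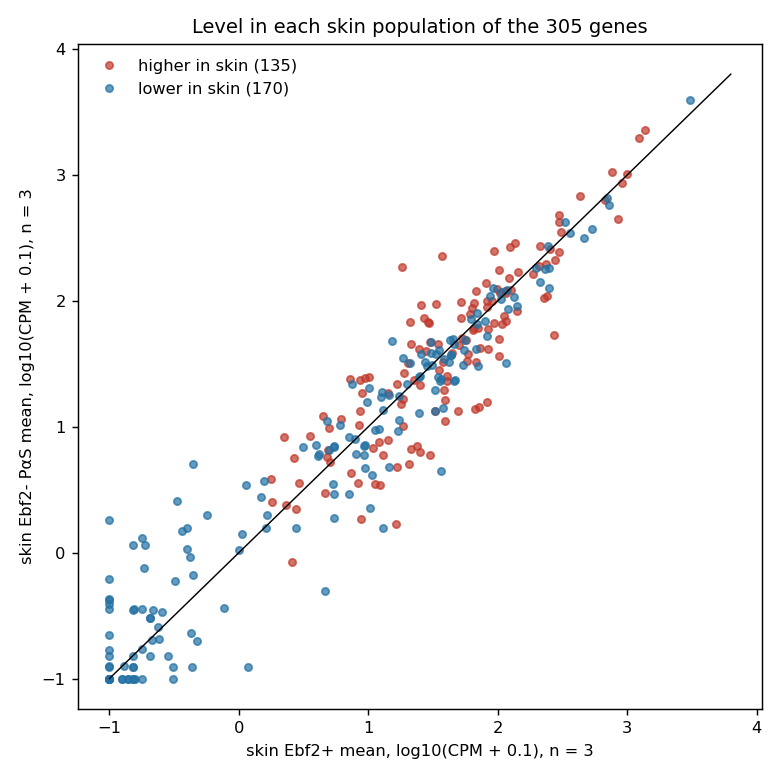
Mean level of the 305 genes in skin Ebf2+ (horizontal axis) and skin Ebf2- PαS (vertical axis), each as log10(CPM + 0.1) over 3 libraries, with genes higher in skin in red (135) and lower in skin in blue (170). The line marks equal levels, and points scatter to both sides of it.

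The rule has an edge that some genes lay close to. Just inside it were Kank1 and Fabp4: the highest skin library of Kank1 had 48.8 CPM and the lowest bone marrow library 48.9 CPM, and the lowest skin library of Fabp4 had 1.88 CPM and the highest bone marrow library 1.76 CPM. Just outside it, with an adjusted p below 0.05, were Bag6, with a highest skin library of 72.0 CPM and a lowest bone marrow library of 71.5 CPM, and the epithelial gene Serpinb5, with 0 reads in bone marrow and in the lowest skin library.

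In the authors' deposited table, 588 genes were higher and 492 lower in skin at an adjusted p below 0.05 in its comparison of both skin populations with bone marrow. Of the 356 genes called here, 340 were among them with the same sign.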

How the data were processed

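RNA was measured by bulk RNA sequencing (SMART-Seq v4 amplification, Nextera XT libraries, single-end reads of 75 bases, per the labels' protocols). The deposited table holds raw counts per Entrez gene for 10 libraries. The authors aligned reads with STAR 2.6.1d to GRCm38 and counted them with featureCounts, per the file headers and the submitters' processing notes, with a strand setting not given in the sources used here. The same table holds the log2 fold changes and adjusted p-values that the authors obtained with DESeq2 (named in the file headers). A further 10 columns of authors' normalized values were not used. All 14995 genes had a total of at least 21 counts, so genes with fewer were not analysed here. Of 18 symbols that a spreadsheet had turned into dates, all 18 were restored from the Entrez number, 251 genes had no symbol, and 14522 were given GRCm38.p6 coordinates from RefSeq. 

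The counts were tested with edgeR 4.0.16 (R 4.3.3; TMM scaling, the default expression filter, quasi-likelihood F test, two-sided, tissue as the only term) and Benjamini-Hochberg adjustment over the 13740 genes tested, with an adjusted p below 0.05 as the call. DESeq2 1.42.0 and limma 3.58.1 served as alternatives, and tables were handled in Python 3.11.15. No label says that skin libraries of different numbers or populations are separate mice, so p-values measure the spread between libraries, part of which may be technical. Where a group had 0 reads, the fold was computed as a bound with 3 counts over the whole group, and ratios with 1 to 3 reads have exact 95% intervals that cover counting error only. A count of 0 in a library allows up to 0.0761 to 0.305 CPM.

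On simulated counts for this comparison (13318 genes), the test called 0 of 50 genes changed by 1 on the log2 scale, 6 of 50 changed by 2, 35 of 50 changed by 4 and 42 of 50 changed by 6, with 2 false calls. The simulated libraries were drawn as independent, which the 10 real libraries are not. The false calls therefore do not measure the error among the genes called here. Genes were named by rule: the sort, sex-linked and strain genes, the 12 widest gaps each way among genes with a mean of at least 10 CPM, and up to 2 members each way of each list. Any gene outside that rule was picked with its values in view. The members and lists were chosen with earlier results of these data known. The numbers of the skin libraries were taken from the labels, and the correlations of their deviations are those given in the report. Results for some genes are not reported here.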

Additional observations from a re-analysis of the deposited data

Results flagged for a closer look

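In a group of 4 or 6 libraries, 1 library stood apart from the rest by Dixon's criterion in 26 of 170 groups of values examined. Chance alone marks about 1 in 20 groups of independent, normally distributed values, a rate that cannot be applied here. Some flags rest on 1 read among libraries with none, bone marrow 1 and 4 were almost the same, and the skin group mixed 2 populations. Skin Ebf2- PαS 2 stood apart for the leukocyte genes Cd3e (708 CPM) and Ptprc (61.9 CPM).

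Bone marrow 3 stood apart for 9 genes: Clec3a (1473 CPM), Cilp2 (878 CPM), Inhba (206 CPM), Clu (2639 CPM), Ugt1a6a (0.811 CPM) and Irx1 (0.541 CPM) were highest there, and Eln (28.5 CPM), Xist (0.391 CPM) and Ngfr (0 CPM) were lowest. Bone marrow 2 stood apart as the highest for Oas1a (1.02 CPM) and Cyp26a1 (6.34 CPM), and as the lowest for Klf2 (215 CPM), and it was also the highest for Ptprc (0.39 CPM).

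Some of the remaining values rest on 1 or 2 reads: Rxfp1 (0.10 CPM), Irx2 (0.050 CPM) and Ptpn5 (0.050 CPM) in bone marrow 4, Krt5 (0.0489 CPM) in bone marrow 1, Mmp13 (0.157 CPM) in skin Ebf2- PαS 3, Hoxc10 (0.0784 CPM) in skin Ebf2+ 3 and Hoxa11 (0.116 CPM) in skin Ebf2+ 1. The others were Comp (13 CPM, the highest) and Tek (19.3 CPM, the lowest) in skin Ebf2+ 2, and, as the highest of their group, Cytl1 (0.706 CPM) in skin Ebf2+ 3 and Ibsp (1.39 CPM) in skin Ebf2- PαS 1.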

How the results depend on the processing

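The calls depended on how the libraries were weighed, and the cause was not tested. Against 356 genes called and 305 of them without overlap, DESeq2 gave 1247 (764 higher and 483 lower in skin) and 661, the skin libraries summed by number 198 and 198, bone marrow 1 and 4 summed 93 and 89, and both summed 115 and 115. A replicate block on the library number gave 113 and 107, although the numbers of skin and bone marrow libraries deviated together by r of only -0.042 to 0.111, and the skin number as a random effect in limma-voom gave 167 and 167. The term for the earlier study gave 20 and 20, bone marrow 4 alone 10 and 10, bone marrow 1 to 3 alone 92 and 90, and, chosen after seeing the data, bone marrow 1 and 4 left out 46 and 46. Leaving out 1 library gave 83 to 453 genes called, 81 to 425 of them without overlap, and 1054 to 1670 genes without overlap in all; the lowest calls were without bone marrow 1 and the highest without skin Ebf2+ 2. Genes without overlap numbered 2502 with skin summed, 2605 with both summed, 5267 with bone marrow 4 alone, 1742 without the skin libraries numbered 3 and 1800 without bone marrow 1 and 4, against 1023; each of these compares fewer libraries. Between the skin populations, a replicate block within skin, chosen after seeing the data, gave 2 genes called in place of 0. The median log2 fold change of all tested genes was 0.13, and 0.24 without scaling. Among the genes named by rule, signs turned for 5, none of which passed in any fit: Pecam1 (-0.11) was 0.23 without scaling, 0.17 with the term for the earlier study, 0.17 against bone marrow 4 and -2.78 to 0.16 with 1 library left out; Xist (0.32) was -0.12, -0.13 and -0.074 to 0.583 in the last 3 of these; Uty (-2.58) was 6.53 and 6.21, Slit3 (0.21) was -0.11 and -0.12, and Mitf (-0.46) was 0.59 and 0.58 with the term and against bone marrow 4. RLE scaling, no scaling, both filters, the 3-group fit and limma-voom without a block stayed within 1.5 times of each count. Depth limits genes below about the floors given for a count of 0.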
